A study of Mus musculus with 25 samples.

Results

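The liver is the main organ that breaks down amino acids for energy and carbon, and 34 enzymes of that task are described here: 4 of phenylalanine and tyrosine breakdown, 6 of tryptophan, 6 of the sulfur and methyl branch, 4 of glycine and serine one-carbon metabolism, 7 of the branched-chain amino acids, 1 of lysine, 2 of proline and 4 aminotransferases. They were chosen by name from textbook pathways, with earlier results of these data known, and are 34 of the 56980 genes counted in the deposited table. Each was measured, and all 34 passed the filter on low counts in both batches.

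Each of 25 male C57BL/6J mice, 8 weeks old at the start, gave one library of liver poly-A RNA. The FAT-MASH regimen, a model of metabolic dysfunction-associated steatohepatitis, combined chow rich in fat, sucrose and cholesterol, drinking water with fructose and glucose, and weekly intraperitoneal carbon tetrachloride (CCl4), a liver toxin, over 12 weeks. Control mice had normal chow and plain water. Mannose, a hexose sugar, was dissolved at 5% or 20% in the drinking water, which was taken freely, so the amount consumed is not known. Prevention groups had it for all 12 weeks and therapy groups for the final 6 weeks. The first batch held 3 mice in each of 6 groups: 1 on normal diet, 1 with the regimen alone (called FAT-MASH below) and 4 with the regimen and mannose, named 5% prevention, 5% therapy, 20% prevention and 20% therapy. The second batch, with another date in the batch label, held normal diet alone (2 mice), normal diet with 5% mannose (2 mice) and normal diet with 20% mannose (3 mice), with mannose for 12 weeks. CCl4 and the diet were always given together, so the part of each in the regimen cannot be told apart.

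Breakdown of most amino acids starts in hepatocytes with a transaminase, oxygenase or dehydrogenase that commits the amino acid, and ends in intermediates of glucose, ketone body or lipid metabolism, while the nitrogen goes to urea. Fasting, glucagon and glucocorticoids are known to raise several of these enzymes, tyrosine aminotransferase being the classic case. The sulfur branch turns methionine into S-adenosylmethionine, the methyl donor of the cell, and then into homocysteine, which is either methylated back or passed on to cysteine.

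Libraries of the first batch held 31298299 to 56010646 counts, and those of the second 35971380 to 49752882. Levels are given in CPM, counts relative to the library total after TMM scaling within a batch, and CPM values scaled this way are not set against each other across batches. Every mannose group on the regimen was compared with the same 3 FAT-MASH libraries, and FAT-MASH in turn with the same 3 normal diet libraries, so these comparisons are not independent of one another. The 15 hepatocyte markers were detected in every group, with a summed level of 105000 to 161500 CPM in the first batch, as the liver label implies. Differences were called at an adjusted p under 0.05 by the quasi-likelihood test of edgeR, adjusted over all genes tested by Benjamini-Hochberg.

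To show where transcription of members with steep falls under mannose starts, the 250 bases before the RefSeq start site are printed for Agxt and Gnmt. The capitals mark the letters AGAACA, the core of the glucocorticoid receptor element, here present on the other strand of Agxt.
Agxt, chr1:93134990-93135239 of GRCm38.p6, plus strand: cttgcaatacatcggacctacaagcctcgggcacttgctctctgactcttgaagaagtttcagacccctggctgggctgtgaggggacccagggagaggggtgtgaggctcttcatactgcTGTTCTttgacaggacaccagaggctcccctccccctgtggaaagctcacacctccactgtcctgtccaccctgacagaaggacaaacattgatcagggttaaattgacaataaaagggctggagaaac
Gnmt, chr17:46729166-46729415 of GRCm38.p6, minus strand: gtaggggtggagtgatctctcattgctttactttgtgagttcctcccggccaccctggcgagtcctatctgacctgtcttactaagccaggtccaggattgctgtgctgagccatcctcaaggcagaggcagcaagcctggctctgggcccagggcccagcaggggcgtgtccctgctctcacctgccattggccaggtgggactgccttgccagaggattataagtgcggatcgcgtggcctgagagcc
Windows of 300 bases, from 250 before to 50 after the start, were found in RefSeq for 30 of the 34 members (31 windows) and were searched on both strands. AGAACA was found in 4 member windows (Agxt, Kmo, Bckdhb and Haao), which is 12.9% of them, and in 19% of the 32851 windows of all genes. The ATF4 letters TGATGNAA were found in 1 window (Got1), 3.23% of the member windows against 3.97% of all. The CREB letters TGACGTCA, the C/EBP letters TTGCGCAA and the HNF4A letters CAAAGTCCA were in none of the 31, and in 1.79%, 0.183% and 0.475% of all windows. These shares describe the letters in the windows and say nothing of binding. Cth, Gpt, Kynu and Mat1a had no window.

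In healthy liver the 34 enzymes differed widely in level. On the scale that corrects for gene length (TPM), Gnmt, which methylates glycine to use up S-adenosylmethionine, was highest at 3637 ± 449 TPM (mean ± SD, n = 3) on normal diet in the first batch. Hpd (1955 ± 101 TPM), Tat (1469 ± 288 TPM), Mat1a (1415 ± 235 TPM) and Bhmt (1118 ± 296 TPM) followed, and the spreads of the last 3 overlapped. The lowest were Afmid at 29.3 ± 3.63 TPM, Acmsd at 28.7 ± 3.34 TPM and Mccc1, a subunit of methylcrotonyl-CoA carboxylase of leucine breakdown, at 11.1 ± 1.19 TPM. Afmid and Acmsd did not differ beyond their spread.

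Summed over the 34 genes, the level was 21589 to 23360 CPM on normal diet in the first batch. It was 15039, 16975 and 20087 CPM in the FAT-MASH libraries. It was 11650 to 13229 CPM under 5% prevention, 8853 to 10335 CPM under 20% prevention, 12938 to 15996 CPM under 5% therapy and 7852 to 8065 CPM under 20% therapy. All 6 libraries of mice given 20% mannose on the regimen were thus below every other library of the batch. In the second batch the sum was 17319 and 17513 CPM on normal diet, 16892 and 19101 CPM with 5% mannose and 14508 to 17448 CPM with 20%, and those groups overlapped. Abundant genes weigh most in the sum, which therefore does not show each of the 34. On normal diet in the first batch the mean was 3078 CPM for Bhmt and 38.7 CPM for Acmsd.

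**Figure D1:**
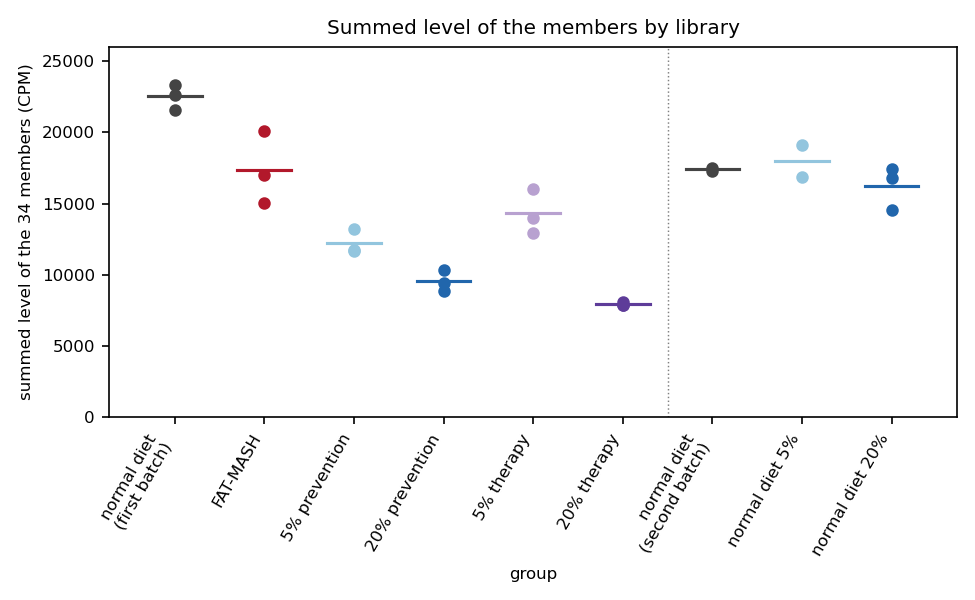
Summed level of the 34 enzymes in CPM (y axis, from 0) in each liver library (points), by group (x axis), with the group mean as a bar and a dotted line between the batches. The 20% prevention (8853 to 10335 CPM) and 20% therapy (7852 to 8065 CPM) libraries lie below all others of the first batch. The groups of the second batch, scaled apart, lie between 14508 and 19101 CPM.

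The first comparison asked how the regimen itself changed these genes. In FAT-MASH liver 10 of the 34 enzymes were lower than on normal diet and none was higher, where 5.92% of all 19571 genes tested were lower, 7.81% higher and 13.7% either. The median log2 fold change of the 34 was -0.27, and that of all genes was 0.03. The split of all genes, 1528 higher and 1159 lower, was 1877 and 880 with library totals as scaling. Under that scaling 9 members were lower and 1 was higher. The 10 came from 7 of the 8 branches, and the single lysine enzyme, Aass, did not pass (log2 fold change -0.14).

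Acmsd, which diverts a tryptophan intermediate away from NAD synthesis, had the largest fall by 1.79 ± 0.20 on the log2 scale (fitted value ± SE, as below; adjusted p = 5.56e-06). Prodh, the first enzyme of proline oxidation, fell by 1.14 ± 0.147 (adjusted p = 3e-05). Cth, which makes cysteine from cystathionine, fell by 1.11 ± 0.151 (adjusted p = 5.94e-05). Tat, which transaminates tyrosine, was at 1338, 1662 and 2060 CPM on normal diet and at 664, 691 and 1167 CPM in FAT-MASH, a fall by 0.99 ± 0.219 (adjusted p = 0.00453). These 4 genes had no overlap between the groups, which does not set them apart. Libraries did not overlap for 21 members in the lower direction and 1 in the higher, and for 32.8% of all genes. Afmid, the formamidase that follows the first step of tryptophan breakdown, fell by 0.84 (adjusted p = 0.000259), Cbs, which joins homocysteine to serine, by 0.61 (adjusted p = 0.00075) and Haao, of the path to NAD, by 0.49 (adjusted p = 0.00657). Shmt1, the cytosolic serine hydroxymethyltransferase, fell by 0.48 (adjusted p = 0.00762) and Ivd, isovaleryl-CoA dehydrogenase of leucine breakdown, by 0.47 (adjusted p = 0.00404). Agxt, the peroxisomal enzyme that detoxifies glyoxylate, passed narrowly at -0.59 ± 0.194 (adjusted p = 0.0483), and the call was lost when any 1 library of either group was left out (adjusted p over 15 alternatives 1.76e-05 to 0.198). Bhmt, which remethylates homocysteine with betaine, had a value of -1.06 ± 0.389 that did not pass (adjusted p = 0.079).

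The remaining branched-chain enzymes ranged from -0.29 for Mccc2 (adjusted p = 0.0592) to 0.26 for Hibch (adjusted p = 0.138), and none passed. All FAT-MASH libraries were below normal diet for Mccc2 and Hibadh and above it for Hibch. Tdo2, the oxygenase that opens tryptophan breakdown, was at 0.21 (adjusted p = 0.493) and Mat1a, the liver form of the S-adenosylmethionine synthetase, at 0.11. In the same libraries 7 of 10 stellate cell and fibroblast markers and 8 of 10 macrophage and Kupffer cell markers were higher in FAT-MASH. The summed level of the former was 259.6 to 335.9 CPM on normal diet and 507.1 to 659.1 CPM in FAT-MASH, and that of the latter 324.7 to 340 CPM and 607.4 to 1036 CPM. Of the 15 hepatocyte markers 1 was lower. Their part in the fall of the enzymes was not tested, and in tissue RNA fewer cells of a type and less RNA per cell cannot be told apart. When libraries were scaled on the hepatocyte markers instead, 7 of the 34 were lower and Shmt1, Ivd and Agxt no longer passed. Shmt1 also did not pass without FAT-MASH replicate 1.

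**Figure D2:**
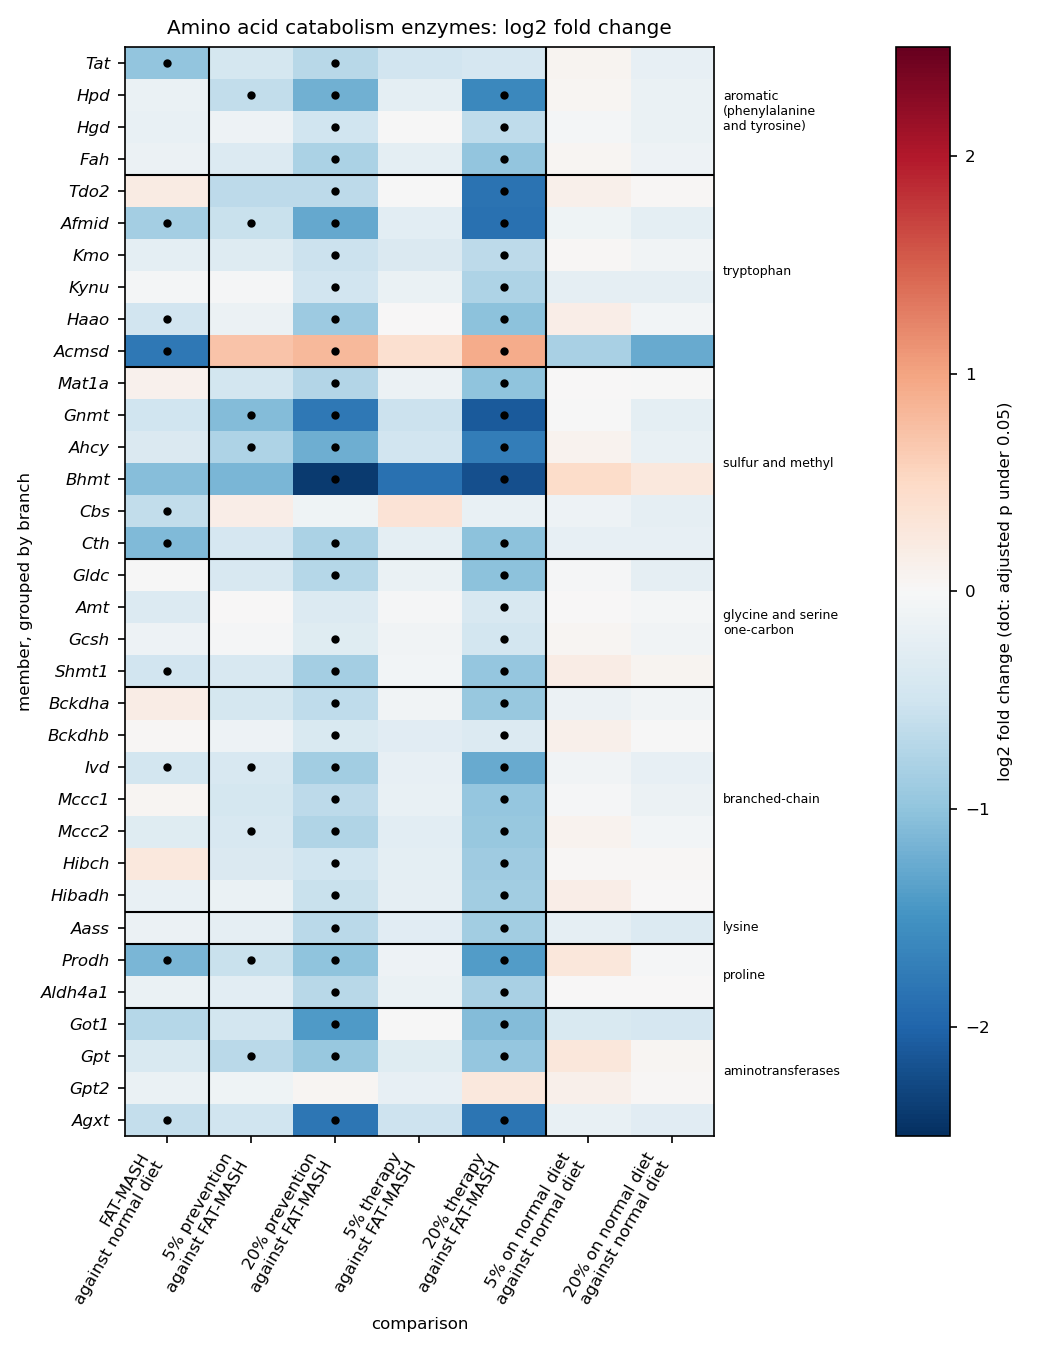
Log2 fold change of each of the 34 enzymes (y axis, grouped by branch) in 7 comparisons (x axis): the regimen against normal diet, 4 mannose groups against FAT-MASH and 2 mannose groups on normal diet against normal diet. Blue is lower, red is higher, and a dot marks an adjusted p under 0.05: 10 dots in the first column, 8, 31, 0 and 31 in the mannose columns on the regimen and 0 in both normal diet columns.

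The central comparison asked what mannose did to the enzymes in mice on the regimen. With 20% mannose, 30 of the 34 enzymes were lower than in FAT-MASH and 1, Acmsd, was higher, in the prevention group and again in the therapy group. The background in the prevention comparison was 15.1% of all genes called, 8.26% lower and 6.83% higher, and in the therapy comparison 21.4% called, 11.3% lower and 10.2% higher. The median log2 fold change of the 34 was -0.71 under prevention and -0.96 under therapy, and that of all genes was 0.02 and 0.00. In each of these comparisons the libraries did not overlap for 31 members in the lower direction and 1 in the higher. Under 5% prevention this held for 16 members in the lower direction and 1 in the higher, and under 5% therapy for 10 and 2. The share of all genes without overlap was 32.3% under 20% prevention, 37% under 20% therapy, 20.3% under 5% prevention and 11.1% under 5% therapy. With 5% prevention 8 of the 34 were lower and none higher, beside a background of 2.27% called and 1.31% lower. That count was 1 without 5% prevention replicate 1, 5 without its replicate 3, 5 (with Acmsd higher) without its replicate 2, and 5, 4 and 3 without FAT-MASH replicate 1, 2 and 3, while DESeq2 called 13 lower and 1, Acmsd, higher. With library totals the split of all genes turned from 189 higher and 256 lower to 393 and 154. With 5% therapy none passed, beside a background of 0.0358% called, 0.0102% lower and 0.0255% higher, although 15 of the 34 had an unadjusted p under 0.05 and DESeq2 called 1.

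Other measures moved with the enzymes. Of the 15 hepatocyte markers 9 were lower under 20% prevention and 10 under 20% therapy, and their summed level was 135900 to 152000 CPM in FAT-MASH, 116700 to 139000 CPM under 20% prevention and 105000 to 109500 CPM under 20% therapy. None of these markers was at 0 in any group, and the log2 fold changes of Hpx (-0.06 and 0.05) and Trf (-0.07 and -0.16) did not pass. The median of the hepatocyte markers was -0.45 under prevention and -0.53 under therapy. All 8 cycling cell markers were higher in both groups, with a summed level of 9.14 to 14.5 CPM in FAT-MASH, 82.1 to 96.6 CPM under 20% prevention and 119 to 366 CPM under 20% therapy. Of the 8 cholangiocyte markers 5 and 6 were higher (97.8 to 118.9 CPM in FAT-MASH, 206.6 to 546.6 and 165.7 to 770.8 CPM with 20% mannose). The part of cycling cells and cholangiocytes in the result was not tested. After scaling on the hepatocyte markers, 21 of the 34 were still lower under 20% prevention and 25 under 20% therapy, with 1 and 2 higher, and the median log2 fold change of all genes moved to 0.19 and 0.43. After scaling on library totals 25 and 27 were lower, with 1 and 2 higher. The split of all genes then turned from 1336 higher and 1616 lower to 3066 and 949 under prevention and from 1989 and 2206 to 5407 and 1113 under therapy.

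The aromatic branch breaks tyrosine down to fumarate and acetoacetate. All 4 of its enzymes were lower under 20% prevention (median -0.74) and 3 of 4 under 20% therapy (median -0.81). Hpd (chr5:123309870-123320790 on GRCm39, minus strand), the dioxygenase of the second step, was at 2073, 1907 and 1963 CPM on normal diet and at 1627, 1781 and 1811 CPM in FAT-MASH. It was at 1054, 1025 and 1318 CPM under 5% prevention, 799.5, 696.4 and 806.2 CPM under 20% prevention, 1711, 1259 and 1418 CPM under 5% therapy and 550, 563.7 and 592.2 CPM under 20% therapy. Only 5% therapy overlapped FAT-MASH, and the 20% therapy libraries were the lowest of the batch. Hpd fell by 0.61 ± 0.119 under 5% prevention (adjusted p = 0.0098), by 1.20 ± 0.12 under 20% prevention (adjusted p = 6.71e-06) and by 1.62 ± 0.122 under 20% therapy (adjusted p = 6.53e-08).

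Fah, the last enzyme of tyrosine breakdown, whose inherited loss causes tyrosinemia, was at 672.8 to 704.6 CPM in FAT-MASH, 389 to 441.9 CPM under 20% prevention and 331.4 to 365.3 CPM under 20% therapy, without overlap. It fell by 0.78 (adjusted p = 2.58e-05) and 0.99 (adjusted p = 5.72e-07). Hgd, homogentisate dioxygenase, fell by 0.50 and 0.63 (adjusted p = 0.00949 and 0.000935). The value under prevention did not pass without FAT-MASH replicate 3 or 20% prevention replicate 2, nor after scaling on library totals or hepatocyte markers. Tat passed in the prevention group alone. Its libraries were at 514, 428 and 626 CPM under 20% prevention and 733, 554 and 608 CPM under 20% therapy, the latter overlapping FAT-MASH. The fall under prevention was by 0.70 ± 0.218 (adjusted p = 0.0341), and it did not pass without FAT-MASH replicate 3, 20% prevention replicate 1 or 20% prevention replicate 2, among 6 of 15 alternatives. The value under therapy was -0.42 ± 0.217 (adjusted p = 0.191), and the direct comparison of therapy with prevention did not pass (0.28 ± 0.217, adjusted p = 0.689).

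In the tryptophan branch, 5 of 6 enzymes were lower with 20% mannose in both groups and 1 was higher. Tryptophan is opened by Tdo2, passes through Afmid, Kmo, Kynu and Haao, and is then sent to NAD or, through Acmsd, to oxidation. Tdo2 (chr3:81864397-81883509 on GRCm39, minus strand) was at 1785, 1754 and 1490 CPM on normal diet and 1934, 1688 and 2155 CPM in FAT-MASH. It was at 970, 1576 and 1110 CPM under 5% prevention, 1535, 1192 and 997 CPM under 20% prevention, 2130, 1828 and 1824 CPM under 5% therapy and 517.5, 624.4 and 464.8 CPM under 20% therapy. The 20% therapy libraries were below all others, and the 5% therapy libraries lay among those of FAT-MASH.

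Tdo2 fell by 1.85 ± 0.184 under 20% therapy (adjusted p = 9.21e-07). Under 20% prevention it fell by 0.65 ± 0.179 (adjusted p = 0.018), a call that was lost without FAT-MASH replicate 3 or without 20% prevention replicate 2 or 3. Tdo2 was the only member that differed between therapy and prevention at 20% (log2 fold change -1.21 ± 0.18, adjusted p = 0.0142), where 0.0818% of all genes were called, 0.0562% lower and 0.0255% higher. That call was lost without 20% prevention replicate 1 or without 20% therapy replicate 1 or 3, and DESeq2 called 5 members there. Between therapy and prevention at 5% no member passed by edgeR (1 without 5% prevention replicate 2) and DESeq2 called 1, where 0.194% of all genes were called, 0.107% lower and 0.0869% higher.

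Afmid (chr11:117716750-117730734 on GRCm39, plus strand) was at 55.5, 47.1 and 45.4 CPM on normal diet and at 21.2, 30.1 and 30.5 CPM in FAT-MASH. It was at 15.95, 19.8 and 19.3 CPM under 5% prevention, 11.5, 11.3 and 11.1 CPM under 20% prevention, 22.5, 21.3 and 24.2 CPM under 5% therapy and 7.47, 6.85 and 8.10 CPM under 20% therapy. The libraries on normal diet were thus the highest and those of 20% therapy the lowest, with only 5% therapy overlapping FAT-MASH. Afmid fell by 0.56 ± 0.134 (adjusted p = 0.0315), by 1.28 ± 0.136 (adjusted p = 1.07e-05) and fell by 1.87 ± 0.139 (adjusted p = 6.23e-08) under 5% prevention, 20% prevention and 20% therapy. Haao fell by 0.90 and 1.02, Kmo, the kynurenine hydroxylase, by 0.53 and 0.66, and Kynu, kynureninase, by 0.48 and 0.76 under 20% prevention and therapy, each past the threshold.

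Acmsd (chr1:127657150-127695715 on GRCm39, plus strand) went the other way. Its libraries were at 35.9, 35.4 and 44.8 CPM on normal diet and 9.47, 11.5 and 12.3 CPM in FAT-MASH. They were at 23.3, 11.7 and 18.9 CPM under 5% prevention, 20.9, 21.8 and 15.9 CPM under 20% prevention, 16.8, 14.5 and 12.7 CPM under 5% therapy and 21.4, 21.0 and 21.2 CPM under 20% therapy. With 20% mannose all 6 libraries were above FAT-MASH and below normal diet. Acmsd rose by 0.81 ± 0.197 under 20% prevention (adjusted p = 0.00824) and by 0.93 ± 0.197 under 20% therapy (adjusted p = 0.00176), and it passed in all 15 alternatives of both. The values under 5% prevention (0.70 ± 0.198, adjusted p = 0.0677) and 5% therapy (0.40, adjusted p = 0.817) did not pass. Since the fall in FAT-MASH and the rise with mannose share the same 3 FAT-MASH libraries, the 2 are not separate measurements.

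Of the 6 enzymes of the sulfur and methyl branch 5 were lower with 20% mannose in each group, with a median of -1.01 under prevention and -1.38 under therapy. Gnmt (chr17:47036590-47040094 on GRCm39, minus strand) was at 2350, 1981 and 1931 CPM on normal diet and at 1157, 1481 and 1729 CPM in FAT-MASH. It was at 678, 575.6 and 788.3 CPM under 5% prevention, 435.6, 434.3 and 403.3 CPM under 20% prevention, 1270, 776 and 960.5 CPM under 5% therapy and 313.9, 402.3 and 312.3 CPM under 20% therapy. Every prevention library and every 20% therapy library was below FAT-MASH. Gnmt fell by 1.09 ± 0.175 under 5% prevention (adjusted p = 0.00284), 1.79 ± 0.179 under 20% prevention (adjusted p = 6.09e-06) and 2.09 ± 0.18 under 20% therapy (adjusted p = 2.51e-07). Of the 8 members called under 5% prevention (Hpd, Afmid, Gnmt, Ahcy, Ivd, Mccc2, Prodh and Gpt), Gnmt was the 1 that passed in all 15 alternatives, and all others lost the call without 5% prevention replicate 1.

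Bhmt (chr13:93753183-93774469 on GRCm39, minus strand) was at 2623, 2519 and 4093 CPM on normal diet and 862.2, 1472 and 2057 CPM in FAT-MASH. It was at 699.9, 273.7 and 1015 CPM under 5% prevention, 279.2, 187.7 and 379.7 CPM under 20% prevention, 484.7, 439.4 and 279.9 CPM under 5% therapy and 364.5, 207.7 and 393 CPM under 20% therapy. Only 5% prevention overlapped FAT-MASH. Bhmt fell by 2.39 ± 0.405 under 20% prevention (adjusted p = 0.000542) and fell by 2.19 ± 0.402 under 20% therapy (adjusted p = 0.000516), while the value of -1.87 ± 0.398 under 5% therapy did not pass (adjusted p = 0.101). Its neighbour and close copy Bhmt2 fell by 0.56 in both 20% groups (adjusted p = 0.00989 and 0.00693), and reads that fit both genes were not counted.

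Ahcy, which hydrolyses S-adenosylhomocysteine, was at 723.9, 635.1 and 674.5 CPM in FAT-MASH, 341.1, 266.5 and 276.7 CPM under 20% prevention and 195.5, 241.5 and 179.4 CPM under 20% therapy, without overlap. It fell by 1.22 ± 0.154 and 1.73 ± 0.157 (adjusted p = 4.48e-05 and 4.24e-07), and by 0.78 ± 0.153 under 5% prevention (adjusted p = 0.0104). Mat1a fell by 0.73 and 1.01 and Cth by 0.80 and 1.03 under 20% prevention and therapy. Cbs did not follow its neighbour Cth in the pathway. It was at 414.4, 411.5 and 423.5 CPM in FAT-MASH, 415.2, 394.8 and 360.3 CPM under 20% prevention and 326.9, 392.3 and 390.5 CPM under 20% therapy. The changes were -0.11 ± 0.108 (adjusted p = 0.572) and -0.18 ± 0.108 (adjusted p = 0.273), so Cbs and Cth, both lower in FAT-MASH, had different calls with 20% mannose, though their difference was not tested. With 5% mannose all Cbs libraries were above FAT-MASH, but the values did not pass. They were 0.17 under 5% prevention (adjusted p = 0.496) and 0.35 under 5% therapy (adjusted p = 0.463). Under therapy Cbs was lower with 20% than with 5% mannose (-0.53, adjusted p = 0.00181).

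Glycine is cleaved by the mitochondrial glycine cleavage system (Gldc, Amt and Gcsh), which feeds carbon to folate, and Shmt1 exchanges serine and glycine. Shmt1 (chr11:60678930-60702544 on GRCm39, minus strand) was at 277.3, 248.4 and 221.5 CPM on normal diet and 152.9, 197.1 and 179.8 CPM in FAT-MASH. It was at 126, 120.8 and 153.8 CPM under 5% prevention, 109.3, 90.9 and 98.1 CPM under 20% prevention, 170.4, 164.8 and 172.1 CPM under 5% therapy and 89.8, 94.4 and 89.0 CPM under 20% therapy. All 20% libraries were below FAT-MASH, and Shmt1 fell by 0.84 ± 0.115 (adjusted p = 8.32e-05) and 0.96 ± 0.116 (adjusted p = 7.17e-06). Gldc, the decarboxylase of the system, fell by 0.72 and 1.03.

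Gcsh (chr8:117708549-117720276 on GRCm39, minus strand), the lipoate carrier of the system and the member of this branch with the highest length-scaled level on average over the libraries, moved little. It was at 113 to 126.8 CPM in FAT-MASH, 96.2 to 97.5 CPM under 20% prevention and 85.6 to 87.5 CPM under 20% therapy, without overlap. The fall was by 0.31 ± 0.0861 under prevention (adjusted p = 0.019), lost in 8 of 15 alternatives, and by 0.46 ± 0.0862 under therapy (adjusted p = 0.00065), lost after scaling on library totals or hepatocyte markers. Amt, the aminomethyltransferase, fell by 0.41 ± 0.115 under therapy (adjusted p = 0.0142) and was at -0.33 under prevention (adjusted p = 0.0573). The Amt call under therapy was lost without FAT-MASH replicate 2 or 3 or 20% therapy replicate 1.

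All 7 branched-chain enzymes were lower in both 20% groups, with medians of -0.64 and -0.94. The first step of this breakdown, transamination, takes place mainly outside the liver, and the 7 act after it. Ivd (chr2:118692435-118713390 on GRCm39, plus strand) was at 335.5, 320.3 and 301.8 CPM on normal diet and 206.5, 229.4 and 250.2 CPM in FAT-MASH. It was at 153.7, 179.2 and 184.5 CPM under 5% prevention, 135.6, 116.5 and 127.6 CPM under 20% prevention, 210.4, 184.4 and 200.2 CPM under 5% therapy and 96.4, 89.6 and 103.5 CPM under 20% therapy. Only 5% therapy overlapped FAT-MASH. Ivd fell by 0.40 ± 0.102 (adjusted p = 0.0425), 0.87 ± 0.102 (adjusted p = 2.58e-05) and fell by 1.25 ± 0.103 (adjusted p = 1.66e-07) under 5% prevention, 20% prevention and 20% therapy.

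Mccc1 and Mccc2, the subunits of methylcrotonyl-CoA carboxylase in the leucine path, fell by 0.66 and 0.75 under 20% prevention and both by 0.96 under 20% therapy. Hibch and Hibadh of the valine path fell by 0.51 and 0.56 under prevention and by 0.89 and 0.87 under therapy. The branched-chain ketoacid dehydrogenase commits all 3 amino acids. Its subunit Bckdha fell by 0.64 ± 0.175 and 0.94 ± 0.176 (adjusted p = 0.0172 and 0.000649), the former lost when replicate 2 or 3 of either group was left out.

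Bckdhb (chr9:83807198-84006293 on GRCm39, plus strand), the partner subunit, changed least of the 7. It was at 82.8 to 89.0 CPM in FAT-MASH, 60.7 to 74 CPM under 20% prevention and 64.2 to 73.8 CPM under 20% therapy, without overlap. The fall was by 0.39 ± 0.0921 (adjusted p = 0.00721) and 0.35 ± 0.0921 (adjusted p = 0.0103). The therapy value was lost without 20% therapy replicate 2 and after scaling on library totals, and after scaling on hepatocyte markers it was 0.09. For Amt under therapy that scaling gave 0.02, so the direction of both rests on the scaling.

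Lysine breakdown was represented by Aass (chr6:23072172-23132985 on GRCm39, minus strand), the 2-function enzyme of its first steps. It was at 287.5, 291.6 and 366.4 CPM in FAT-MASH, 228.7, 170.8 and 196.2 CPM under 20% prevention and 164.2, 159.2 and 195.8 CPM under 20% therapy. The 6 libraries with 20% mannose were below all others of the batch, whose lowest was 250 CPM under 5% prevention. Aass fell by 0.68 ± 0.121 (adjusted p = 0.00077) and 0.87 ± 0.121 (adjusted p = 3.26e-05).

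Proline is oxidised by Prodh and then Aldh4a1 to glutamate. Prodh (chr16:17878221-17908067 on GRCm39, minus strand) was at 315.1, 275.3 and 333.6 CPM on normal diet and 127.8, 122.6 and 164.8 CPM in FAT-MASH. It was at 83.6, 96.6 and 100 CPM under 5% prevention, 74.4, 59.9 and 75.7 CPM under 20% prevention, 152.1, 99.8 and 128.7 CPM under 5% therapy and 50.4, 55.6 and 52.4 CPM under 20% therapy. The steps from normal diet to FAT-MASH and from FAT-MASH to 20% mannose were both free of overlap. Prodh fell by 0.56 ± 0.146 (adjusted p = 0.0477) under 5% prevention, 1.00 ± 0.147 (adjusted p = 0.000164) under 20% prevention and 1.40 ± 0.148 (adjusted p = 1.74e-06) under 20% therapy. Aldh4a1 (chr4:139350177-139377001 on GRCm39, plus strand) was at 259.5 to 308.7 CPM in FAT-MASH, 156.3 to 194.1 CPM under 20% prevention and 145.9 to 182.7 CPM under 20% therapy. It fell by 0.70 ± 0.114 (adjusted p = 0.000392) and 0.80 ± 0.114 (adjusted p = 4.16e-05).

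Of the 4 aminotransferases 3 were lower with 20% mannose in both groups. Agxt (chr1:93062962-93073143 on GRCm39, plus strand) was at 352.6, 380.1 and 375.4 CPM on normal diet and 192.6, 260.5 and 275.1 CPM in FAT-MASH. It was at 162.7, 133.5 and 220.7 CPM under 5% prevention, 72.7, 54.1 and 83.6 CPM under 20% prevention, 217.4, 147.9 and 142.2 CPM under 5% therapy and 63.7, 62.8 and 78.9 CPM under 20% therapy. The 20% libraries lay far below the rest, and the 5% groups overlapped FAT-MASH. Agxt fell by 1.81 ± 0.2 (adjusted p = 1.42e-05) and 1.83 ± 0.2 (adjusted p = 2.33e-06).

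Got1, the cytosolic aspartate aminotransferase, fell by 1.41 ± 0.24 and 1.08 ± 0.238 (adjusted p = 0.000572 and 0.00262). Gpt, the cytosolic alanine aminotransferase whose activity in serum is the usual test of liver injury, fell by 0.68 ± 0.142 under 5% prevention (adjusted p = 0.0163) and by 0.95 and 0.97 in the 20% groups. Gpt2, its mitochondrial counterpart, was at 378.2, 436.5 and 559.8 CPM in FAT-MASH, 463.7, 486.2 and 478.9 CPM under 20% prevention and 600.7, 518.3 and 533 CPM under 20% therapy. Those groups overlapped, and the values of 0.04 ± 0.151 (adjusted p = 0.903) and 0.26 ± 0.151 (adjusted p = 0.253) did not pass.

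**Figure D3:**
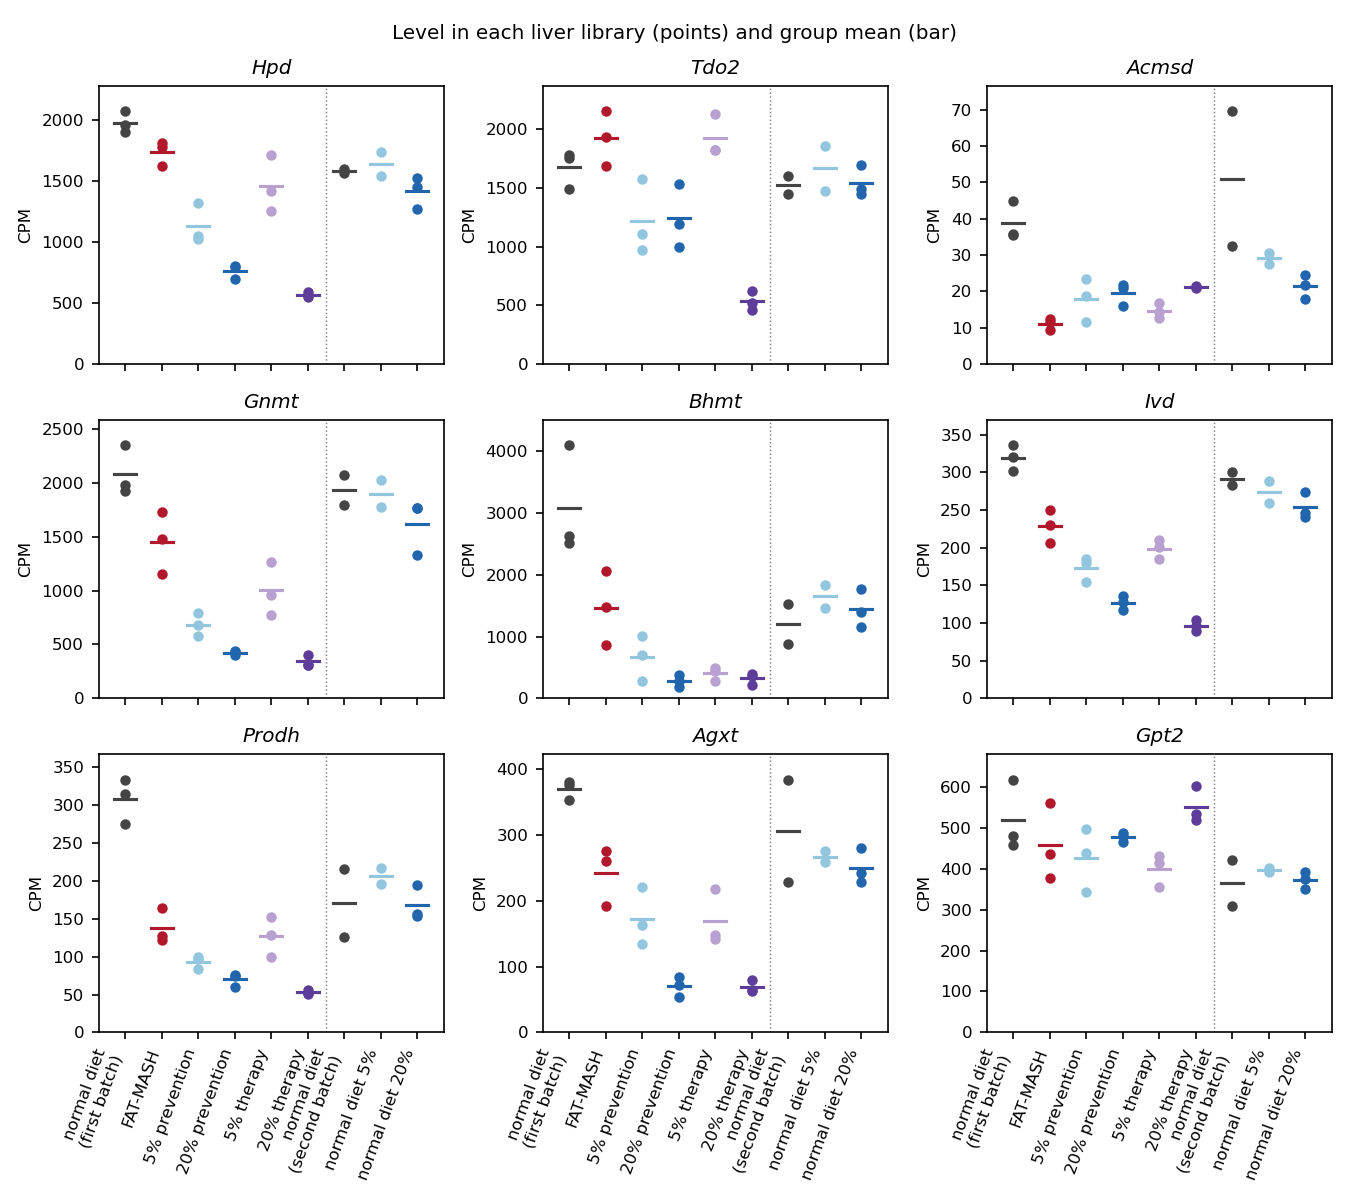
Level in CPM (y axes, from 0) of 9 enzymes in each liver library (points) by group (x axis), with the group mean as a bar and a dotted line between the batches. Within the first batch, Hpd, Tdo2, Gnmt, Ivd, Prodh and Agxt are lowest in 20% therapy or 20% prevention, Acmsd lies at 15.9 to 21.8 CPM in those groups between FAT-MASH and normal diet, and Gpt2 overlaps FAT-MASH in both.

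The 2 doses were compared directly within each timing. Under therapy, 28 of the 34 enzymes were lower with 20% than with 5% mannose and 1, Gpt2, was higher, where 17.7% of all genes were called, 9.33% lower and 8.33% higher. Tdo2 had the largest difference at -1.85 (adjusted p = 2.46e-06), followed by Afmid at -1.60 (adjusted p = 8.89e-07), Gnmt at -1.55 (adjusted p = 7.79e-06) and Hpd at -1.37 (adjusted p = 1.08e-06). Bhmt did not differ beyond its spread (-0.33 ± 0.39, adjusted p = 0.64), and its value in 5% therapy was already low. Gpt2 was higher by 0.46 ± 0.15 (adjusted p = 0.0415), a call lost when any 1 of the 6 libraries was left out. The Amt call was lost without 5% therapy replicate 3 or 20% therapy replicate 1 or 3. After scaling on hepatocyte markers 12 members were lower and 3 higher, and after scaling on library totals 25 were lower and 2 higher. The split of all genes went from 1630 higher and 1825 lower to 7544 and 501, and to 4730 and 897, and their median to 0.48 and 0.29. Under prevention, 6 were lower with 20% than with 5% and none higher, where 0.445% of all genes were called and 0.337% were lower. They were Agxt (-1.32 ± 0.20, adjusted p = 0.0105), Haao (-0.75 ± 0.11, adjusted p = 0.0105), Afmid (-0.72 ± 0.14, adjusted p = 0.0281), Hpd (-0.58 ± 0.12, adjusted p = 0.0425), Fah (-0.44 ± 0.09, adjusted p = 0.0439) and Ivd (-0.47 ± 0.10, adjusted p = 0.0485). This count fell to 0 without 5% prevention replicate 3 or 20% prevention replicate 2, to 3 without 5% prevention replicate 2 and to 4 without any of the other 3 libraries, and DESeq2 called 15. With library totals the split of all genes turned from 21 higher and 66 lower to 90 and 47.

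Against normal diet rather than FAT-MASH, 25 members were lower under 5% prevention, 30 under 20% prevention, 20 under 5% therapy and 33 under 20% therapy, and none was higher. Of all genes 22.4%, 33.3%, 12.9% and 36.1% were called in these comparisons, of which 10.1%, 15.1%, 5.89% and 16.7% were lower and 12.3%, 18.2%, 7.04% and 19.4% higher. With library totals as scaling the higher and lower genes numbered 3861 and 1109, 5980 and 1640, 1965 and 786, and 7514 and 1577, against 2403 and 1984, 3559 and 2952, 1377 and 1153, and 3796 and 3261. That scaling left 19 members lower under 5% prevention and 28 under 20% prevention. Scaling on hepatocyte markers left 19 and 25. Under 20% therapy the largest falls were in Bhmt (-3.255 on the log2 scale), Afmid (-2.715), Gnmt (-2.60), Prodh (-2.54) and Agxt (-2.43). Gpt2 was the member that did not pass (0.10, adjusted p = 0.667).

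A further comparison asked whether mannose did the same in mice on normal diet. No member passed with 5% mannose, where 0% of all 18462 genes were called, or with 20%, where 0.00542% were called. At an unadjusted p under 0.05 there were 1 and 2 members, DESeq2 called 0 and 1, and 2 and 3 passed without normal diet replicate 5. The median log2 fold change of the 34 was 0.02 with 5% and -0.11 with 20%. With 20% all libraries lay below both controls for 13 members and above both for none, beside 2104 and 1905 of all genes. With 5% the members numbered 4 below and 3 above, beside 3447 and 2959 of all genes. Gnmt was at 2074 and 1793 CPM on normal diet, 1775 and 2027 CPM with 5% and 1333, 1770 and 1764 CPM with 20%. Hpd was at 1599 and 1566, 1540 and 1739, and 1271, 1452 and 1527 CPM in the same order. Agxt was at 383.8 and 228.2, 258.3 and 274.7, and 228.1, 242.4 and 279.7 CPM. With 20% mannose all libraries were below both controls for Gnmt and Hpd, and Agxt overlapped the controls.

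Acmsd had the largest difference at 20% (-1.25 ± 0.255, adjusted p = 0.29). It was at 69.6 and 32.6 CPM on normal diet, 30.7 and 27.5 CPM with 5% and 21.9, 17.8 and 24.5 CPM with 20%. All 3 libraries with 20% were lower than both without, and without normal diet replicate 4, the one at 69.6 CPM, the value was -0.60. Without normal diet replicate 5 it passed, as it did by DESeq2 with all libraries. There were only 2 control libraries, and the absence of calls does not show that mannose had no effect on normal diet.

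**Figure D4:**
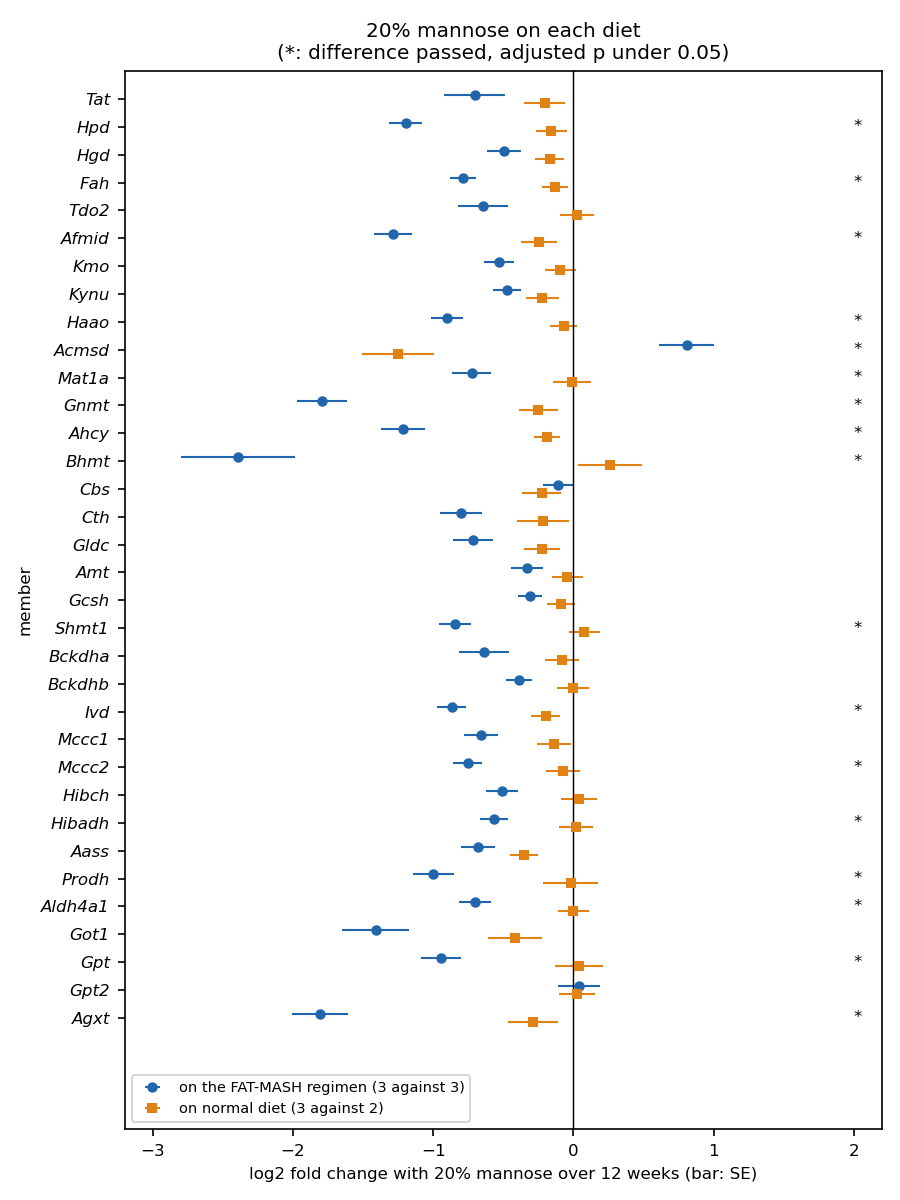
Log2 fold change with 20% mannose over 12 weeks (x axis, bar: SE) for each enzyme (y axis), on the FAT-MASH regimen (circles, 3 against 3 libraries) and on normal diet (squares, 3 against 2). A star marks the 17 enzymes whose change differed between diets, which were in different batches here, at an adjusted p under 0.05. Acmsd is to the right of 0 on the regimen (0.81) and to the left on normal diet (-1.25).

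The difference of the 20% effect between the diets was tested in a model of all 25 libraries with a batch term. It passed for 17 members, 16 with a more negative effect on the regimen and 1, Acmsd, with a more positive one, where 5.67% of all 21373 genes were called, 3.41% negative and 2.26% positive. Acmsd differed by 2.06 ± 0.333 (adjusted p = 0.000693). The largest negative differences were Bhmt (-2.66 ± 0.57, adjusted p = 0.00709), Gnmt (-1.54 ± 0.257, adjusted p = 0.000882), Agxt (-1.52 ± 0.301, adjusted p = 0.00388), Afmid (-1.04 ± 0.194, adjusted p = 0.00231) and Hpd (-1.04 ± 0.173, adjusted p = 0.000891). Tat (-0.50), Tdo2 (-0.67), Cth (-0.59), Aass (-0.33) and all of Gldc, Amt and Gcsh did not pass. For the 5% effect no member passed by edgeR (3 without normal diet replicate 5, and 2 and 1 without 5% prevention replicate 2 and 3) and DESeq2 called 5, where 0.524% of all genes were called, 0.285% negative and 0.239% positive. The count of 17 fell to 11 without normal diet replicate 4, when Bhmt (adjusted p = 0.0641), Mat1a, Mccc2, Hibadh, Prodh, Aldh4a1 and Gpt no longer passed and Got1 did, and to 11 with library totals as scaling, when the split of all genes turned from 483 positive and 728 negative to 1425 and 375 and their median moved to 0.23. Each mannose effect was taken within its own batch, that on the regimen in the first and that on normal diet in the second. Whether the effects differ by diet or by batch therefore cannot be told apart, and the normal diet libraries of both batches do not change this.

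Enzymes of the same pathways outside the 34 were examined next, from a list of 58 of which 56 were tested. These too were chosen by name with earlier results of these data known. In FAT-MASH 15 were lower and 2 higher than on normal diet (median -0.13, 5 higher and 14 lower with library totals as scaling). With 5% prevention 13 were lower and none higher, which fell to 1 without 5% prevention replicate 1 and to 6 without FAT-MASH replicate 1 or 3. With 20% prevention 45 were lower and 1 higher (median -0.62), and with 20% therapy 45 were lower and none higher (median -0.81). After scaling on hepatocyte markers the counts were 32 lower and 2 higher under prevention and 30 lower and 6 higher under therapy. With 5% therapy none passed. Of all 19571 genes 1159 were lower in FAT-MASH, 256 under 5% prevention, 1616 under 20% prevention, 2 under 5% therapy and 2206 under 20% therapy. In the same order 1528, 189, 1336, 5 and 1989 were higher. All 4 enzymes of histidine breakdown were lower in both 20% groups, with medians of -1.15 and -1.36.

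By the smallest p, Prodh2, the hydroxyproline dehydrogenase, led in both 20% groups. It fell by 1.21 ± 0.112 under prevention (adjusted p = 5.67e-06) and fell by 1.55 ± 0.113 under therapy (adjusted p = 6.23e-08). Pipox, which oxidises sarcosine and pipecolate, fell by 0.96 and 1.26. Hsd17b10 of isoleucine breakdown fell by 1.06 under 20% prevention and Gcdh, glutaryl-CoA dehydrogenase of the lysine and tryptophan paths, by 1.28 under 20% therapy. Csad, which makes the taurine precursor hypotaurine, was the single rise under 20% prevention (0.93 ± 0.28, adjusted p = 0.0289), lost when replicate 2 or 3 of FAT-MASH, or replicate 1 or 2 of 20% prevention, was left out. Sds, serine dehydratase, named here after its value was seen, fell by 3.22 ± 0.323 under 20% therapy, the largest fall of the list. Sds was at 92.55 to 161.5 CPM in FAT-MASH, 20.2 to 24.1 CPM under 20% prevention and 11.3 to 21.2 CPM under 20% therapy. In FAT-MASH itself Oat, ornithine aminotransferase, fell by 3.51 ± 0.34 (adjusted p = 1.12e-06), from 972 to 1363 CPM on normal diet to 73.3 to 113.6 CPM, and Ethe1 and Dmgdh, of sulfide and of dimethylglycine oxidation, fell by 1.16 and 0.81.

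Enzymes that make amino acids or serve growing cells, a list of 13 with 12 tested, were examined in the same way. With 20% prevention 6 were higher and 1 lower, and with 20% therapy 7 were higher and 1 lower, with medians of 0.88 and 1.27. Of all 19571 genes 1336 were higher and 1616 lower under prevention, and 1989 and 2206 under therapy. After scaling on hepatocyte markers the counts of the list were 7 higher and 1 lower, and 10 higher and none lower. Psat1, of serine synthesis, was at 1.98 to 3.02 CPM in FAT-MASH, 8.44 to 19.6 CPM under 20% prevention and 15.7 to 29.0 CPM under 20% therapy, and rose by 2.45 ± 0.327 (adjusted p = 6.71e-05) and 3.20 ± 0.334 (adjusted p = 1.46e-06). Mthfd2, the mitochondrial folate enzyme of growing cells, rose by 1.39 and 2.29 and Aldh18a1, which starts proline synthesis, by 1.26 and 1.73. Shmt2, the mitochondrial partner of Shmt1, fell by 0.58 and 0.61, the latter call lost with hepatocyte marker scaling. In FAT-MASH against normal diet, where 1528 of all genes were higher and 1159 lower, 4 of the 12 were higher and 2 lower. They were led by Aldh18a1 (2.08) and Glul (-1.72). The cycling cell markers given above rose in the libraries with 20% mannose, and their part in the rise of the synthesis genes was not tested.

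Of 12 amino acid transporters 4 were lower and 1 higher under 20% prevention and 6 lower and none higher under 20% therapy. Of all 19571 genes 1616 were lower and 1336 higher under prevention, and 2206 and 1989 under therapy. The transporter splits rest on the scaling: with library totals they were 2 lower and 3 higher, and 5 lower and 2 higher, and with hepatocyte markers 1 and 1, and 3 and 3. The prevention count was 3 in all without FAT-MASH replicate 3 and 2 without 20% prevention replicate 2. Slc38a3, the liver glutamine carrier, fell by 0.68 and 0.98, the former lost without 20% prevention replicate 2.

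Of 12 regulators linked to amino acid breakdown, 2 were lower under 5% prevention, 4 under 20% prevention, none under 5% therapy and 10 under 20% therapy, and none was higher. Of all 19571 genes 256, 1616, 2 and 2206 were lower in these comparisons, and 189, 1336, 5 and 1989 higher. After scaling on hepatocyte markers 2 and 4 regulators were lower with 20% prevention and therapy, with 1 higher under therapy. The 4 became 2 without FAT-MASH replicate 3 or 20% prevention replicate 2, and the 10 became 6 without 20% therapy replicate 1. Klf15, a transcription factor known to drive amino acid breakdown in liver, was at 151.7 to 242.8 CPM in FAT-MASH, 94.3 to 117.8 CPM under 5% prevention, 71.7 to 87.8 CPM under 20% prevention and 52.9 to 68.7 CPM under 20% therapy. It fell by 0.83 ± 0.161 (adjusted p = 0.0098), 1.33 ± 0.163 (adjusted p = 3.49e-05) and fell by 1.67 ± 0.164 (adjusted p = 8.88e-07). Gcgr, the glucagon receptor, fell by 0.64, 0.70 and 0.83 in the same groups. Under 5% prevention Klf15 did not pass without 5% prevention replicate 1, nor Gcgr without FAT-MASH replicate 1. Ppargc1a, a coactivator of fasting metabolism, fell by 0.80 under 20% prevention (adjusted p = 0.0312), a call lost when FAT-MASH replicate 1, FAT-MASH replicate 3, 20% prevention replicate 1 or 20% prevention replicate 2 was left out, and Cebpa, a transcription factor of hepatocyte identity, by 0.98 under 20% therapy (adjusted p = 3.06e-05). In FAT-MASH against normal diet Ppargc1a (0.81) and Ppara (0.76) were higher and Atf4 (-0.96) was lower. Atf4 passed whichever library was left out. The Ppargc1a call was lost without any 1 normal diet library or without FAT-MASH replicate 1 or 3, and the Ppara call when replicate 3 of either group or replicate 2 of FAT-MASH was left out.

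**Figure D5:**
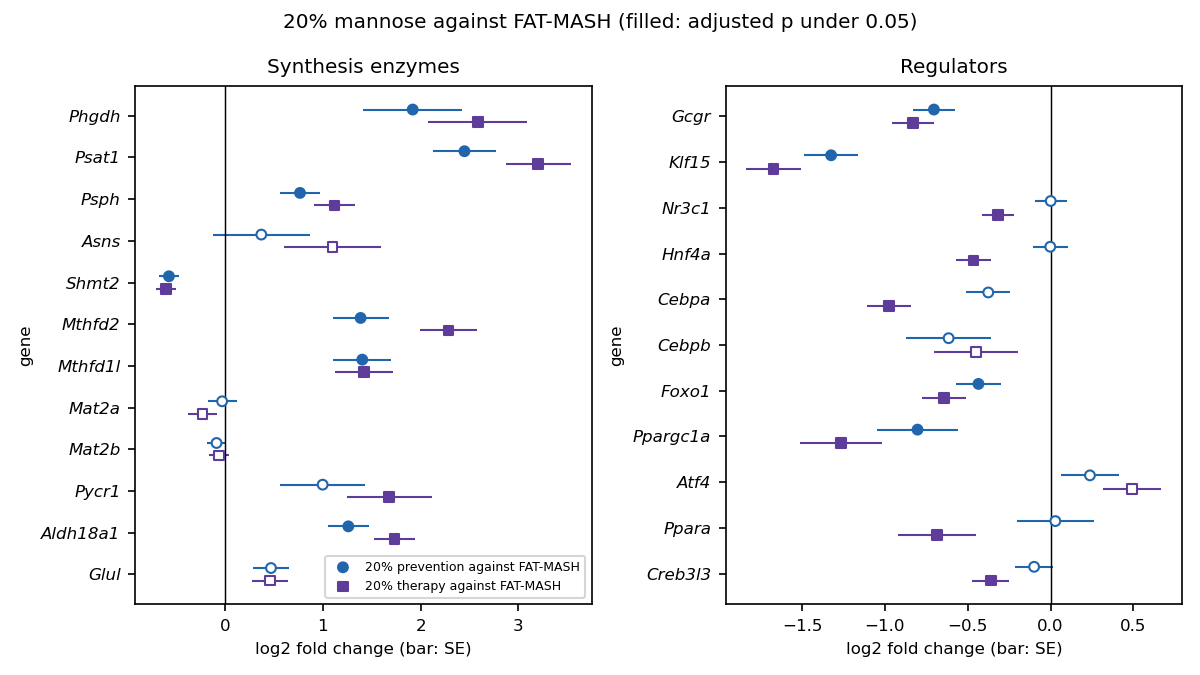
Log2 fold change (x axes, bar: SE) with 20% prevention (circles) and 20% therapy (squares) against FAT-MASH for 12 synthesis enzymes (left) and 11 of the 12 regulators (right), with filled symbols at an adjusted p under 0.05. Psat1 lies farthest right (2.45 and 3.20) and Klf15 farthest left (-1.33 and -1.67).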

How the data were processed

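Liver poly-A RNA of 25 mice was measured by RNA-seq. Per the submitters' processing notes the authors used STAR, the GRCm39 build and featureCounts 2.0.6, whereas featureCounts 2.0.1 and GENCODE mouse release 31 are named per the file headers. The deposited values are whole-number counts per gene, not normalized by the authors. Per the file headers the counting command sets neither strand nor pairs nor multiple alignments. Under featureCounts defaults this means counting without strand and without reads that align to more than one place. Overlapping or antisense genes and close copies such as Bhmt and Bhmt2 are uncertain to that extent. The deposited length column gives the bases of each gene model and served for TPM.

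Symbols were matched by gene ID (52073 of 56980 genes). The test was edgeR's quasi-likelihood F test (version 4.0.16, R 4.3.3), after TMM scaling and filterByExpr. P-values were adjusted by Benjamini-Hochberg over all genes tested and called under 0.05. The 18 libraries of the first batch were fitted together (19571 genes), the 7 of the second together (18462), and all 25 with a batch term for differences between diets (21373). Plain normal diet was in both batches, but the difference of the mannose effects does not draw on that link. The standard error is the log2 fold change divided by the square root of the test statistic. The scripts were tested on simulated data with known fold changes. No 2 libraries of a group agreed within sampling noise (chi-square divided by its degrees of freedom at least 21.2). The labels call the samples biological replicates, and shared cages or litters are not stated, so p-values measure the spread between these samples. Same-numbered libraries did not vary together and were not treated as pairs.

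The members and the other gene lists were chosen with earlier results of these data known. Members were named in full where 12 or fewer passed, otherwise the one with the smallest p in each branch and the 3 largest rises and falls. Values in each library are given for the member of each branch with the highest mean TPM and that with the smallest p in the 20% comparisons, and for others on which a result turns. From other lists up to 3 genes in each direction with the smallest p were named.

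Alternatives were DESeq2 1.42.0, RLE size factors, library totals as scaling, no filter, limma 3.58.1 voom with sample weights, all 25 libraries with a batch term, only the groups compared, the replicate number as a block and leaving out each library. Scaling on hepatocyte markers was added after seeing the data. Promoter windows came from RefSeq on GRCm38.p6, another build than that of the counts, and no coordinates were moved between them. Motif letters were matched on both strands. Values of 1 regulator and 1 promoter sequence are not reported here.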

Additional observations from a re-analysis of the deposited data

Results flagged for a closer look

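Of the 34 members tested in the group of 5 normal diet libraries over both batches, 2 had a library far from the others. Acmsd was at 78.7 CPM in normal diet replicate 4, scaled over all 25 libraries, where the others were at 33.4 to 42.8 CPM. Cbs was at 868 CPM in that library, where the others were at 584 to 643 CPM. These levels span both batches with no term for batch, and normal diet replicates 4 and 5 are the 2 from the second. Chance alone gives about 1 such group in 20.

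For 17 members the effect of 20% mannose over 12 weeks differed between the regimen and normal diet by the interaction term of edgeR's quasi-likelihood test (adjusted p under 0.05). The effects came from different batches, so diet and batch cannot be told apart in this difference. Acmsd had a positive difference of 2.06 on the log2 scale. The others were negative: -1.04 for Hpd and -0.654 for Fah in the aromatic branch, -1.04 for Afmid and -0.833 for Haao in the tryptophan branch, and -0.717 for Mat1a, -1.54 for Gnmt, -1.03 for Ahcy and -2.66 for Bhmt in the sulfur branch. Shmt1 was at -0.921. The branched-chain enzymes Ivd, Mccc2 and Hibadh were at -0.67, -0.68 and -0.585, the proline enzymes Prodh and Aldh4a1 at -0.98 and -0.703, and the aminotransferases Gpt and Agxt at -0.989 and -1.52. Normal diet replicate 4, which stood apart for Acmsd and Cbs, is 1 of only 2 control libraries in the second batch. Acmsd kept its call without it, with a lowest difference of 1.41 over the 20 alternatives.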

How the results depend on the processing

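Of the values of single members under the alternatives, 8321 stayed on their side of the threshold, 267 no longer passed and 211 newly passed. Among the 8321, 272 that passed in neither setting changed sign. A further 7 changed sign with a call in at least 1 setting, all on rescaling. With hepatocyte markers, Amt was 0.0162 and Bckdhb 0.0882 under 20% therapy against FAT-MASH, Amt 0.0946, Gcsh 0.103 and Bckdhb 0.408 for 20% against 5% therapy, and Bckdhb 0.214 for 20% therapy against normal diet, where library totals gave 0.0622. Library totals moved the median of all genes to 0.20 under 20% prevention and 0.30 under 20% therapy, and hepatocyte markers moved it to 0.19 and 0.43.

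Counts of members called moved by over 1.5 times as follows. DESeq2 gave 14 for 5% prevention, 1 for 5% therapy, 15 for 20% against 5% prevention, 1 and 5 for therapy against prevention at 5% and 20%, 1 for 20% on normal diet and 5 for the difference of the 5% effect between diets. No filter gave 16 for FAT-MASH, 20 for 5% prevention, 5 for 5% therapy, 15 for 20% against 5% prevention, 5 and 5 for therapy against prevention, 1 and 1 for 5% and 20% on normal diet and 8 for the difference of the 5% effect. Voom gave 15 for 5% prevention, 12 for 20% against 5% prevention, 1 and 2 for therapy against prevention and 2 for the difference of the 5% effect. Library totals gave 5 for 5% prevention and 1 and 11 for the differences of the 5% and 20% effects between diets. Hepatocyte markers gave 4 for 5% prevention, 2 for 20% against 5% prevention and 15 for 20% against 5% therapy. Fitting only the groups compared gave 4, 2 and 0 for 5% prevention, 20% against 5% prevention and therapy against prevention at 20%. All 25 libraries with a batch term gave 1 for 20% on normal diet. Scaling on hepatocyte markers was not run for the differences between diets. Counts for the 20% groups against FAT-MASH stayed within 1.5 times of 31 under all alternatives run. Where no cause is given, the cause was not tested.

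Leaving out 1 library at a time gave 8 to 12 members for FAT-MASH, 1 to 6 for 5% prevention, 25 to 32 for 20% prevention, 0 for 5% therapy and 30 to 31 for 20% therapy. It gave 0 to 4 and 27 to 28 for 20% against 5% under prevention and therapy, 0 to 1 for therapy against prevention at either dose, 19 to 24, 30 to 33, 15 to 20 and 33 for 5% prevention, 20% prevention, 5% therapy and 20% therapy against normal diet, 0 to 2 and 0 to 3 for 5% and 20% on normal diet, and 0 to 3 and 11 to 19 for the differences of the 5% and 20% effects.

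Same-numbered libraries shared no deviation (correlations -0.162 to 0.179, median -0.0168, 1 of 45 over 0.1), and 5 of 18 libraries correlated best with their own number. With the replicate number as a block the count for 20% against 5% prevention was 2, that for FAT-MASH was 15, and the other counts stayed within 1.5 times. With 3 libraries a group, and 2 in the second batch, small changes could be missed at any depth.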
